A study of Mus musculus with 6 samples.

Results

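Cytochrome P450 genes encode haem enzymes that oxidise drugs, fatty acids, steroids, sterols, bile acids, retinoids and vitamin D. Every protein-coding mouse gene was taken whose symbol is Cyp, a number, a letter and a number, together with Cyp51, which gave 93 of the 21887 protein-coding genes on the chromosomes. Chromatin accessibility was measured by ATAC-seq, in which a transposase cuts and tags open DNA, in c-myc-immortalised fibroblasts from mouse embryos (line A, also called C2). The design had 3 groups with 2 samples each, and 50000 whole cells went into each transposition: wild-type cells, Ezh2 -/- cells, and Ezh2 -/- cells given retroviral pMSCV-Ezh2. Ezh2 is the methyltransferase of Polycomb repressive complex 2. All groups carry the c-myc immortalisation and come from 1 cell line. The values below come from the authors' 1 deposited list, which gives the accessible intervals in Ezh2 -/- cells. The other groups were not analysed here, so no genotype is compared, and the list holds no value per replicate and no read depth, so no replicate error or test across samples could be given.

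The family falls into gene groups with different biology. In the clustered xenobiotic subfamilies (Cyp1a, Cyp2a, Cyp2b, Cyp2c, Cyp2d, Cyp2j, Cyp3a and their neighbours), tandem duplication gave arrays of related genes that are known mostly from liver, gut and other epithelia. The clustered Cyp4 genes hydroxylate fatty acids and eicosanoids. The genes of steroid, sterol, bile acid and vitamin D metabolism are mostly single copies, many of them limited to adrenal gland, gonad, liver, kidney or brain, while the sterol enzyme Cyp51 serves nearly every cell.

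Of the 93 Cyp genes, 13 (14.0%) had an accessible interval within 1 kb of either gene end and are called open here, where 47.4% of all protein-coding genes were open. Counted anywhere from 1 kb before to 1 kb after the gene, the number was 15 (16.1%, against 53.7% of all genes), and within 50 kb it was 38 (40.9%, against 71% of all genes). The median distance from a Cyp gene to the nearest interval was 81.9 kb, and the median over all protein-coding genes was 0. Tandem genes share their surroundings, so the 93 genes are not independent of each other, and these shares carry no test.

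The classes differed in these counts. Of 52 clustered xenobiotic genes 1 had a gene-end interval (1.92%), and of 16 clustered fatty acid genes 2 did (12.5%). Of 16 steroid, sterol, bile acid and vitamin D genes 6 did (37.5%), and of 6 other single-copy genes 4 did (66.7%). None of the 3 retinoic acid hydroxylase genes of the Cyp26 family had a gene-end interval, although Cyp26b1 had one inside the gene. Within 50 kb, 28.8% of clustered xenobiotic, 37.5% of clustered fatty acid and 68.8% of steroid and sterol genes had an interval, the last close to the 71% of all genes. The median distance to the nearest interval was 158 kb, 74.2 kb and 10.4 kb in that order. When the genes were divided by position alone, 3 of 67 genes with another member within 100 kb had a gene-end interval (4.48%), and 10 of the 26 without such a neighbour did (38.5%). Only members of the rule counted as neighbours, and the 26 include Cyp4a29 and Cyp4x1 of the Cyp4 cluster on chromosome 4. The share of the lone genes, like that of the steroid and sterol genes, lay below the 47.4% of all genes.

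**Figure D1:**
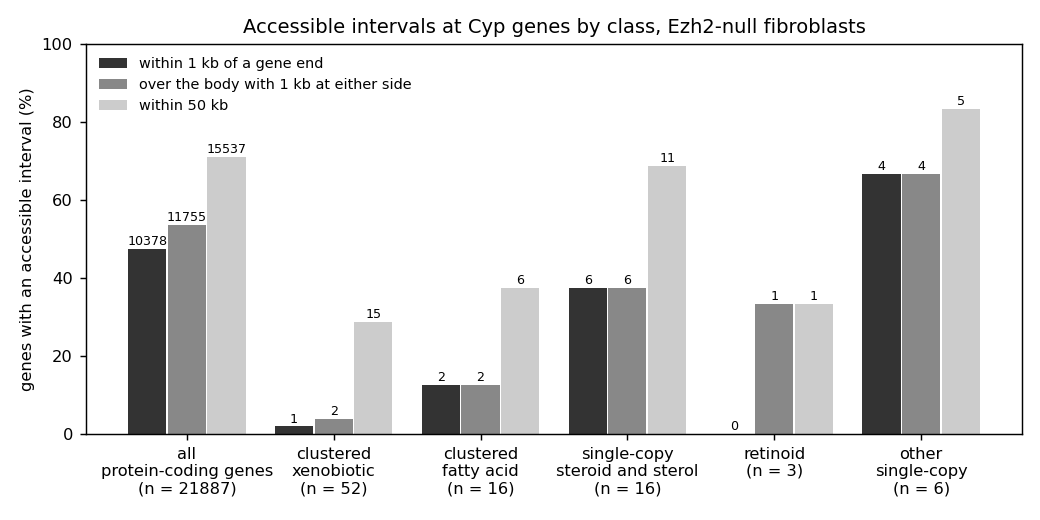
Percentage of genes (vertical axis) with an accessible interval within 1 kb of a gene end, anywhere from 1 kb before to 1 kb after the gene, or within 50 kb, for all 21887 protein-coding genes and for 5 classes of Cyp gene. Numbers above the bars are genes. The clustered xenobiotic bars are the lowest of the larger classes, at 1.92%, 3.85% and 28.8%.

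**Figure D2:**
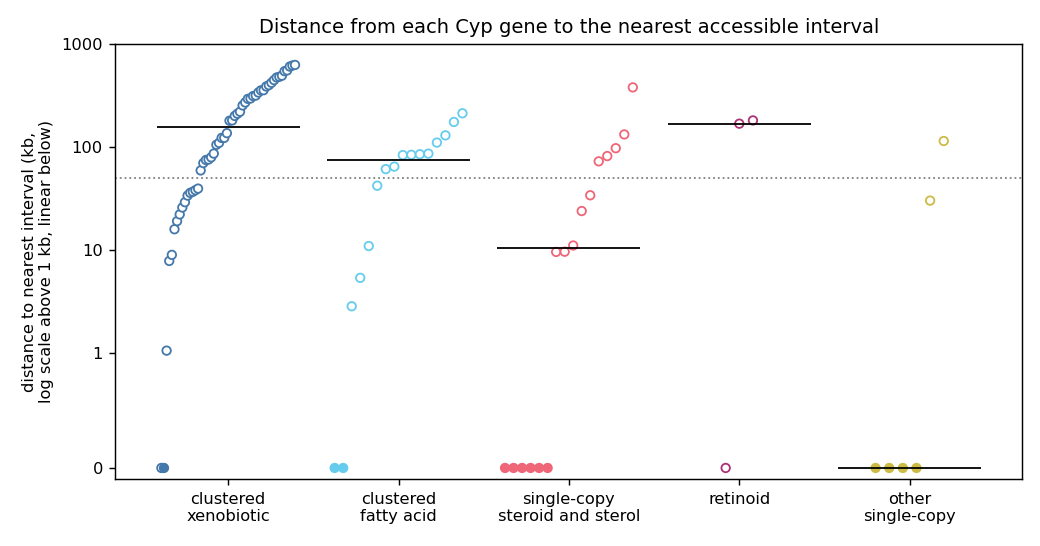
Distance from each of 93 Cyp genes to the nearest accessible interval in kb (logarithmic above 1 kb, linear below), by class. Filled points have a gene-end interval, horizontal lines are class medians and the dotted line marks 50 kb. Most clustered xenobiotic genes lie above the dotted line and most steroid and sterol genes at or below it.

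The promoters of 4 open members are printed because their accessible interval lies over the transcription start. The sequences are from RefSeq (GRCm38.p6), run 5′ to 3′ from 250 bases before the start to 50 after it, and have each CpG dinucleotide in capitals.

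Cyp51, chr5:4104648-4104947, minus strand: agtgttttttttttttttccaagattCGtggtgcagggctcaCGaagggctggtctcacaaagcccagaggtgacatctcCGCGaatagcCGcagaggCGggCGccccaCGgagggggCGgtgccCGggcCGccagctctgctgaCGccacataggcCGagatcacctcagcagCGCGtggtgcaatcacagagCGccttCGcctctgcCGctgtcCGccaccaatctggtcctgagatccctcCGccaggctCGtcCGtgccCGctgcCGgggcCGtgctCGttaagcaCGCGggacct
Cyp46a1, chr12:108334066-108334365, plus strand: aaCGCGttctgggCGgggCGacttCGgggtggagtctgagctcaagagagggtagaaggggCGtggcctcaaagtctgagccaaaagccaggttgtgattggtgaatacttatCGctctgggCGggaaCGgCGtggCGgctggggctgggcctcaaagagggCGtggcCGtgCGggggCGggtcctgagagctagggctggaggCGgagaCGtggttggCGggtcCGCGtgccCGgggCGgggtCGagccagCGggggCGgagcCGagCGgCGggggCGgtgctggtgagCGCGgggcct
Cyp1b1, chr17:79715012-79715311, minus strand: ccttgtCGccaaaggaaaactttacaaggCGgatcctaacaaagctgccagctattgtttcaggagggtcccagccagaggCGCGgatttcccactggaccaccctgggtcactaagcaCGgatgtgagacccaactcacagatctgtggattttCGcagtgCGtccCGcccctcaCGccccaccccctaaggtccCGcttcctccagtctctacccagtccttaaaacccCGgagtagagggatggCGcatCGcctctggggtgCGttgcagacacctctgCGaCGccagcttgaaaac
Cyp4f16, chr17:32536307-32536606, plus strand: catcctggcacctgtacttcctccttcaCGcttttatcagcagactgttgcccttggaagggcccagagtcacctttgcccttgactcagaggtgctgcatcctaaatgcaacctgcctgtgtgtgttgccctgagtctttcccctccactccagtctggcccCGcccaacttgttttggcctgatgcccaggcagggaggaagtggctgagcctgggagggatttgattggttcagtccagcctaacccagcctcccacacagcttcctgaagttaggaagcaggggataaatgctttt

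Cyp51, Cyp46a1 and Cyp1b1 hold 28, 31 and 16 CpG dinucleotides in these 300 bases, against a median of 13 (quartiles 4 and 24) over 17492 protein-coding promoters. Cyp4f16 holds 2, so an interval was also present at a CpG-poor start. These are set beside 3 promoters with no interval, those of Cyp2c29 and Cyp3a11 from the drug-metabolising arrays and of the retinoic acid hydroxylase Cyp26a1.

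Cyp2c29, chr19:39286835-39287134, plus strand: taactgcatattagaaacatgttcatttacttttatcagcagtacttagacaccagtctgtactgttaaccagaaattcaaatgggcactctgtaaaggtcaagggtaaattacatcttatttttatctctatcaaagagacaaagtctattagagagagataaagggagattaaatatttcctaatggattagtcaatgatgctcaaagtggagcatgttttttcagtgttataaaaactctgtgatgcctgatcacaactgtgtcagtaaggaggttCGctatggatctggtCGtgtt
Cyp3a11, chr5:145879805-145880104, minus strand: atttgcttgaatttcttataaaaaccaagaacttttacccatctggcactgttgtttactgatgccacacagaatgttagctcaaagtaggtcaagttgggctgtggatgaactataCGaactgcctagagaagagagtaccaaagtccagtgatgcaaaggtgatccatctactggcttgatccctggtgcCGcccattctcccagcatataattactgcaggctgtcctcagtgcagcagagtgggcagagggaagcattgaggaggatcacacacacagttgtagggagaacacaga
Cyp26a1, chr19:37697558-37697857, plus strand: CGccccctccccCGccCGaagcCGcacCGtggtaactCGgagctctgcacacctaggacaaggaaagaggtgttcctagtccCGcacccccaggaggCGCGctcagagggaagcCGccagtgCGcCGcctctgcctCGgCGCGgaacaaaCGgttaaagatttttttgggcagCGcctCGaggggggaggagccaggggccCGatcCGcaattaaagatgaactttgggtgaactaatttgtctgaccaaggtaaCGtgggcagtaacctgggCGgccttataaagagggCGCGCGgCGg

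Cyp2c29 and Cyp3a11 hold 2 CpG dinucleotides each, as Cyp4f16 does, whereas Cyp26a1 holds 26 and its nearest interval was 181 kb away. These 7 promoters were picked for printing, so they cannot show how CpG number goes with accessibility. Over all listed protein-coding promoters, an interval overlapped 69.7% of those with at least 10 CpG dinucleotides and 10.6% of those with fewer.

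Among the steroid and sterol genes, Cyp51 (chromosome 5, 4080674 to 4104697, mm10) encodes lanosterol demethylase of the cholesterol pathway and had the highest maximum signal of the family. Its interval at 4102780 to 4107646 reached a maximum signal of 71, with 66882 in total. Total signal is the area under the coverage of a called region and maximum signal its height, both in the authors' units. The maximum lay 191 bp inside the gene from its 5′ end, and 95.3% of all genes with a gene-end interval had a lower maximum. Cyp46a1 (chromosome 12), which hydroxylates cholesterol in neurons, followed among the intervals that hold their own maximum. Its called region summed to 110600, with a maximum of 53 located 94 bp before the annotated gene start, and was deposited as 2 intervals (108332722 to 108335993, and 108337312 to 108339880 inside the gene). Both of these starts are CpG-rich, although Cyp46a1 is best known from brain and Cyp51 from all tissues.

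The bile acid gene Cyp39a1 (chromosome 17), an oxysterol hydroxylase known from liver, had an interval at 43665976 to 43668765 with 62894 in total signal and 35 at its maximum, which lay 117 bp from the gene end. This interval also reached the end of Slc25a27, so it cannot be given to either gene alone. Of the vitamin D genes, Cyp27b1 makes the active hormone and Cyp24a1 degrades it, both mainly in kidney. Cyp27b1 (chromosome 10) had an interval over its 5′ part at 127047932 to 127052743, covering 67.8% of the gene, with 57697 in total signal and 17 at its maximum. A neighbouring interval touched the 3′ end of Cyp27b1 (127054398 to 127056978) and also an end of Marchf9. It belonged to a called region that summed to 193222 and reached 64, and that maximum lay 8527 bp beyond Cyp27b1. Cyp24a1 (chromosome 2) had an interval at 170495435 to 170497699 that also reached an end of Pfdn4, with 50300 in total signal and 19 at its maximum.

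Cyp17a1 (chromosome 19), the hydroxylase and lyase of the adrenal and gonad, differed in shape. A single interval of 7158 bp (46666192 to 46673349) covered 100% of the gene. Its total signal, 47306, was above the median of open genes (39334.5), and its maximum, 22, was below their lower quartile of 29 and lay 2099 bp inside the gene. Low maxima were thus seen at Cyp17a1, Cyp24a1 and the 5′ part of Cyp27b1 (22, 19 and 17), unlike Cyp51 and Cyp46a1 (71 and 53).

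The remaining 10 genes of this class had no interval at the ends or in the body. Among the genes of steroid hormone synthesis, the nearest interval was 9.63 kb from Cyp21a1, 11.1 kb from the aromatase gene Cyp19a1, 24 kb from the side-chain cleavage gene Cyp11a1, 81.9 kb from Cyp11b1 and 97.6 kb from Cyp11b2. Cyp11b1 and Cyp11b2 are adjacent copies and count as single-copy genes by subfamily only. Among the bile acid genes it was 9.68 kb from Cyp8b1, 34.1 kb from Cyp27a1, 72.8 kb from Cyp7a1, the rate-limiting enzyme of the classical pathway, and 379 kb from Cyp7b1. For Cyp2r1, a vitamin D hydroxylase with 22 CpG dinucleotides at its start, it was 133 kb. The interval near Cyp8b1 (121925982 to 121932144 on chromosome 9) was itself strong, with a maximum of 65 and a total of 75147, and reached no end of another protein-coding gene within 1 kb.

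Of the other single-copy genes, Cyp1b1 (chromosome 17), which oxidises oestradiol and aromatic hydrocarbons and is known from mesenchymal tissue, had an interval at 79713088 to 79716685 with 68557 in total signal and a maximum of 45 located 691 bp before its start. The orphan gene Cyp20a1 (chromosome 1) had one at 60342237 to 60344294 with 27832 in total signal and a maximum of 47 located 60 bp inside the gene. The fatty acid hydroxylase gene Cyp2u1 (chromosome 3) had one at 131301717 to 131303846 with 22120 in total signal and 32 at its maximum. At Cyp2w1 (chromosome 5) an interval of 10600 bp covered 100% of the gene and reached an end of 3110082I17Rik. The called region there summed to 197909, the highest at the 93 Cyp genes of the rule, with a maximum of 40 that lay 7384 bp outside the gene. Cyp2w1 had 13 intervals within 50 kb, the most among those 93, against a median of 2 over all genes. Chromosome 5 was dense, 63.2% of its genes being open. Cyp2e1, an ethanol-oxidising enzyme of liver, and Cyp4v3, a fatty acid hydroxylase, had no gene-end interval. Their nearest intervals were 30.3 kb and 115 kb away.

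Cyp26a1, Cyp26b1 and Cyp26c1 clear retinoic acid in the embryo. The interval in Cyp26b1 (chromosome 6, 84585415 to 84590891) was 5477 bp long, covered 24.3% of the gene and summed to 64168, with a maximum of 36 located 3452 bp inside the gene from its 5′ end. Cyp26a1 and Cyp26c1, neighbours on chromosome 19, were 181 kb and 169 kb from the nearest interval.

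**Figure D3:**
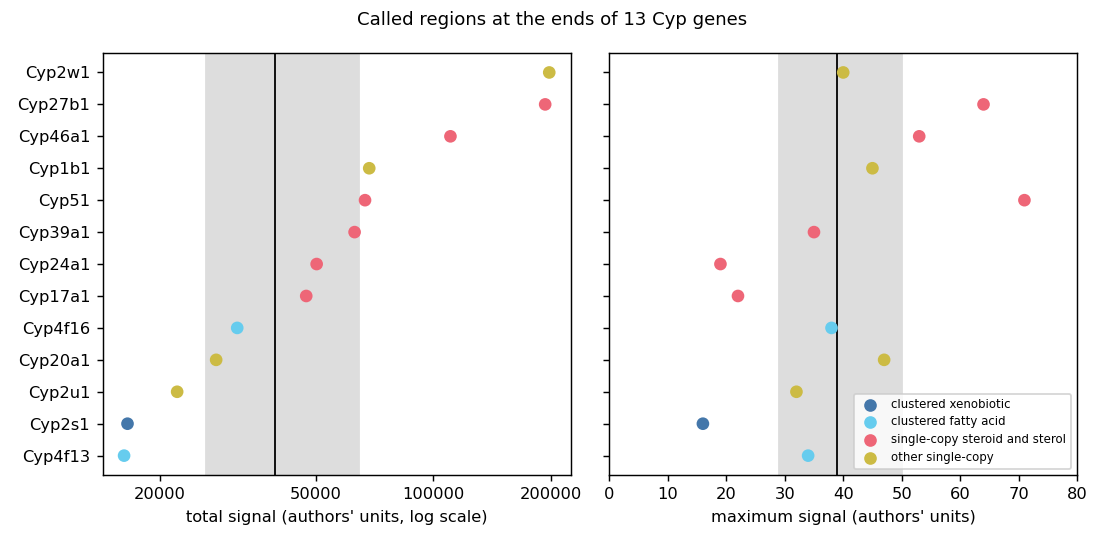
Highest total signal (left, logarithmic axis) and maximum signal (right), in the authors' units, of the called regions at the ends of 13 Cyp genes, coloured by class. The line and grey band are the median and quartiles over 10378 genes with a gene-end interval. Cyp51 has the highest maximum, 71, and Cyp2s1 the lowest, 16; for Cyp2w1 and Cyp27b1 the maximum plotted lies 7384 bp and 8527 bp from the gene, outside the interval that touches it.

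Over the 13 open Cyp genes the median total signal was 50300 and the median maximum 38, and over all 10378 open genes they were 39334.5 and 39. The open members were therefore near the middle of open genes in height. Of the 9 with a listed strand, 8 had an interval at the 5′ end, and Cyp2s1 had one at the 3′ end only. For 8 of the 12 genes whose end interval held its own maximum, that maximum lay within 250 bp of a gene end. At 3 of the 13 genes, Cyp24a1, Cyp39a1 and Cyp2w1, the interval also reached another protein-coding gene, which leaves 10 with an interval of their own.

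The clustered genes were closed in long stretches. The 7 clusters of at least 4 Cyp genes held 63 members, of which 3 had a gene-end interval, and 5 clusters held none. The Cyp2c cluster on chromosome 19 (39006940 to 40187286), whose human relatives oxidise many prescribed drugs, had 14 members and no interval. It lay whole in an interval-free stretch of 1380 kb. Around it, 56.0% of 25 other protein-coding genes within 1 Mb had a gene-end interval, and 60.7% of all genes on chromosome 19 did. The Cyp2j cluster of arachidonic acid epoxygenases on chromosome 4 (96042660 to 96664171) also lay whole in an interval-free stretch, of 1590 kb, with 7 members. Its surroundings were sparse in genes, with 5 others within 1 Mb, of which 2 had an interval. The 5 Cyp genes farthest from any interval belonged to these clusters: Cyp2c68 (626 kb), Cyp2c67 (618 kb), Cyp2j5 (604 kb), Cyp2c40 (555 kb) and Cyp2j9 (545 kb).

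In the chromosome 7 cluster of Cyp2a, Cyp2b, Cyp2f, Cyp2g, Cyp2s and Cyp2t genes (25802469 to 27158564), 12 of 13 members lay in an interval-free stretch of 1300 kb, from which intervals resumed at both edges. The 5 other protein-coding genes within the span, Vmn1r184, Vmn1r185, Nlrp4a, Nlrp9a and Nlrp9c, had no gene-end interval either, so the closed stretch was not limited to Cyp genes. Around the cluster, 62.3% of 69 genes within 1 Mb had a gene-end interval. At the lower edge stood Cyp2s1, an enzyme known from epithelia outside the liver. Among the 52 clustered xenobiotic genes of the rule it alone had a gene-end interval. The Cyp2s1 interval (25801701 to 25804081) had a total signal of 16513, near the lowest in the list (15316), a maximum of 16, and lay at the 3′ end. At the upper edge Cyp2t4 was 1.06 kb from an interval at an end of Egln2, just beyond the 1 kb window.

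The Cyp2d cluster on chromosome 15 (82370527 to 82794452; 8 members) held 1 interval within its span, at 82416273 to 82418490 between genes, with 25735 in total signal and 33 at its maximum. It was 9.02 kb from Cyp2d10. On the other side Cyp2d26 was 7.87 kb from an interval with 33861 in total and 14 at its maximum. In all, 6 of the 8 Cyp2d genes had an interval within 50 kb, a share close to the 71% of all genes, although none had one at its ends. These 6 genes share the intervals nearest to Cyp2d10 and Cyp2d26, so they are not separate cases. The 1 other gene listed as protein-coding in the span, Tdg-ps, had none at its ends. Of the other genes within 1 Mb, 66% had a gene-end interval. In the Cyp4a, Cyp4b and Cyp4x cluster on chromosome 4 (115106323 to 115647721), none of 7 members had one, and 6 lay in an interval-free stretch of 552 kb, where 75.8% of 33 genes within 1 Mb around the cluster had one. The 3 other protein-coding genes in the span, Cyp4a12a, Cyp4a12b and Cyp4a30b, had no gene-end interval. Cyp4x1 at the lower edge of the cluster was 2.86 kb from an interval, and 6 lay within 50 kb of it.

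The Cyp4f cluster on chromosome 17 (32452697 to 32947415), whose enzymes inactivate leukotrienes and hydroxylate long fatty acids, had the most open members, 2 of 8. Cyp4f16 had an interval over its 5′ end (32535556 to 32537640; total signal 31508, maximum 38), with the maximum 51 bp before the annotated start. Cyp4f13 also had one over its 5′ end (32946587 to 32948338; total 16184, maximum 34), with the maximum 103 bp before it. The other 6 members, Cyp4f14, Cyp4f15, Cyp4f17, Cyp4f37, Cyp4f39 and Cyp4f40, had none, and the interval nearest to Cyp4f17, at 5.40 kb, was that of Cyp4f16. Of the 4 other protein-coding genes within the span, 3 had a gene-end interval. Cyp4f18, on chromosome 8, was 64.7 kb from the nearest one.

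The Cyp3a cluster on chromosome 5 (145345149 to 146114978), whose human relatives metabolise the broadest range of drugs, was mixed. None of its 6 members had a gene-end interval, but 18 intervals lay in its span (23.4 per Mb, against 16.9 over chromosome 5). Of these, 17 stood in the 304 kb between Cyp3a16 and Cyp3a44, and the other was an interval of 594 bp inside Cyp3a57 (145360703 to 145361296; total signal 22303, maximum 12, located outside the interval). The 17 intervals came from 11 called regions with maxima from 12 to 19, where the median of all called regions was 27. That stretch holds Cyp3a41a and Cyp3a41b, near-identical copies whose symbols carry a trailing letter and so fall outside the rule, and both had a gene-end interval. With those 2 and the 4 other coding genes of such symbols, 15 of 99 Cyp genes had one (15.2%). The treatment of reads that align to several copies is not stated in the labels or the list, and its part in these intervals was not tested. Cyp3a44, Cyp3a11, Cyp3a25 and Cyp3a59 lay in an interval-free stretch of 476 kb beyond it. Cyp3a13, a separate Cyp3a gene on the same chromosome, was 86.5 kb from the nearest interval.

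**Figure D4:**
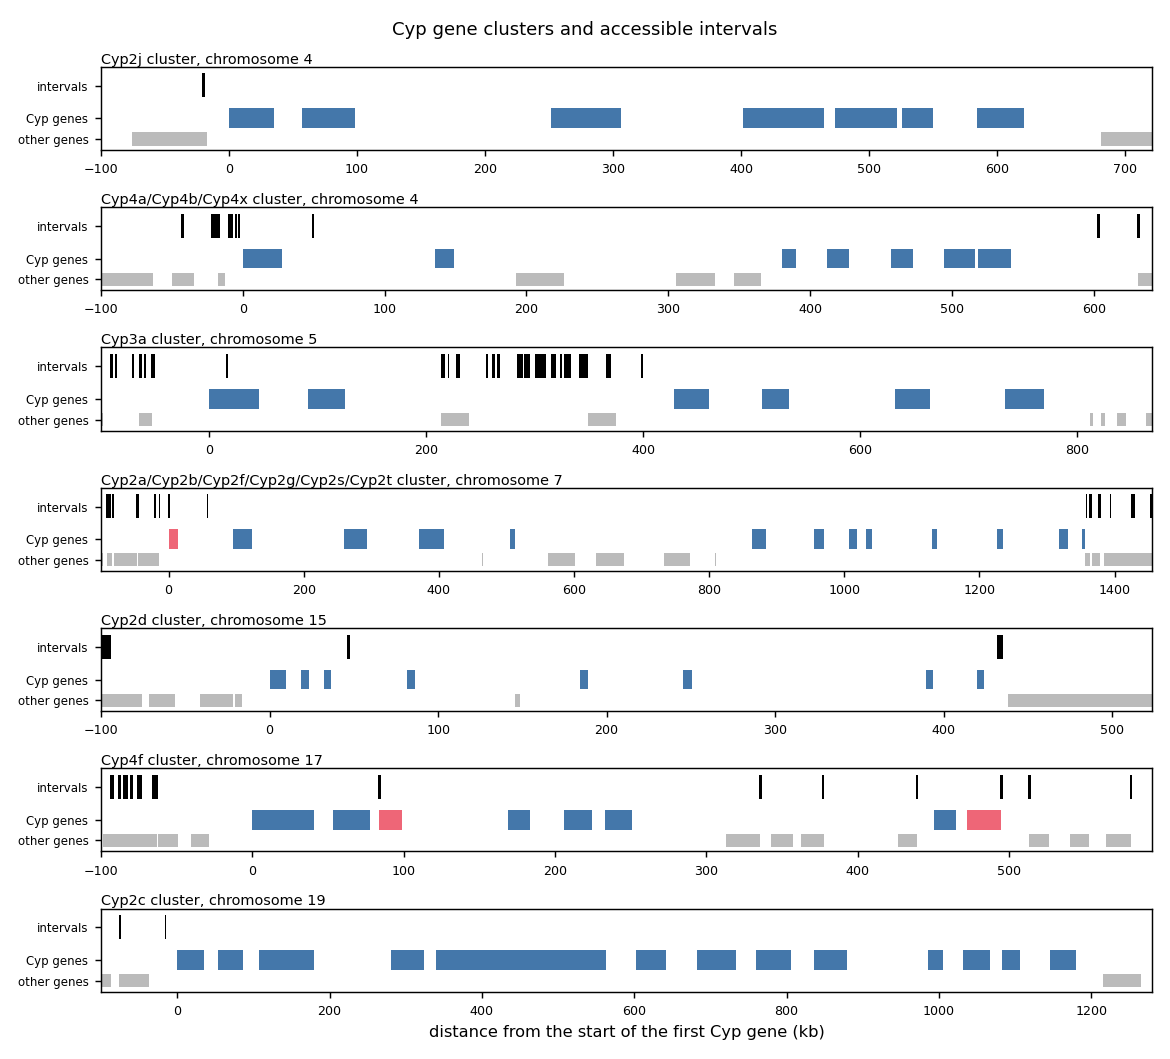
Maps of 7 Cyp clusters, each drawn to its own scale in kb from the start of its first Cyp gene, with 100 kb at either side. Black bars are accessible intervals, red and blue boxes are Cyp genes with and without a gene-end interval, and grey boxes are other protein-coding genes. The Cyp2j and Cyp2c spans hold no interval, and 17 of the 24 intervals on the Cyp3a map lie between Cyp3a16 and Cyp3a44.

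Cyp1a1, the classical target of the aryl hydrocarbon receptor, forms a pair with Cyp1a2 on chromosome 9. Cyp1a1 and Cyp1a2 were 59.4 kb and 79.6 kb from the nearest interval. Their single-copy relative Cyp1b1 was open, as described above. The receptor gene Ahr itself had a gene-end interval (total signal 16925, maximum 24), as did its partner Arnt (25338, maximum 50).

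Promoter sequences were listed for 73 of the 93 genes and for 17492 of all protein-coding genes. The median number of CpG dinucleotides in the 300 bases was 2 over 46 clustered xenobiotic genes, 3 over 11 clustered fatty acid genes, 8.5 over 8 steroid and sterol genes and 16 over 5 other single-copy genes. At least 10 CpG dinucleotides were held by 10 of the 73 Cyp promoters (13.7%) and by 57.2% of all promoters. An interval overlapped 4 of those 10 Cyp promoters (40.0%) and 4 of the 63 with fewer (6.35%). Over all genes it overlapped 69.7% of promoters with at least 10 and 10.6% of those with fewer. The open CpG-rich starts were those of Cyp51, Cyp46a1, Cyp20a1 and Cyp1b1, and the open CpG-poor ones those of Cyp27b1, Cyp2w1, Cyp4f16 and Cyp4f13. CpG-rich starts without an interval were those of Cyp26a1, Cyp2r1, Cyp4v3, Cyp2s1, Cyp4f39 and Cyp27a1.

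**Figure D5:**
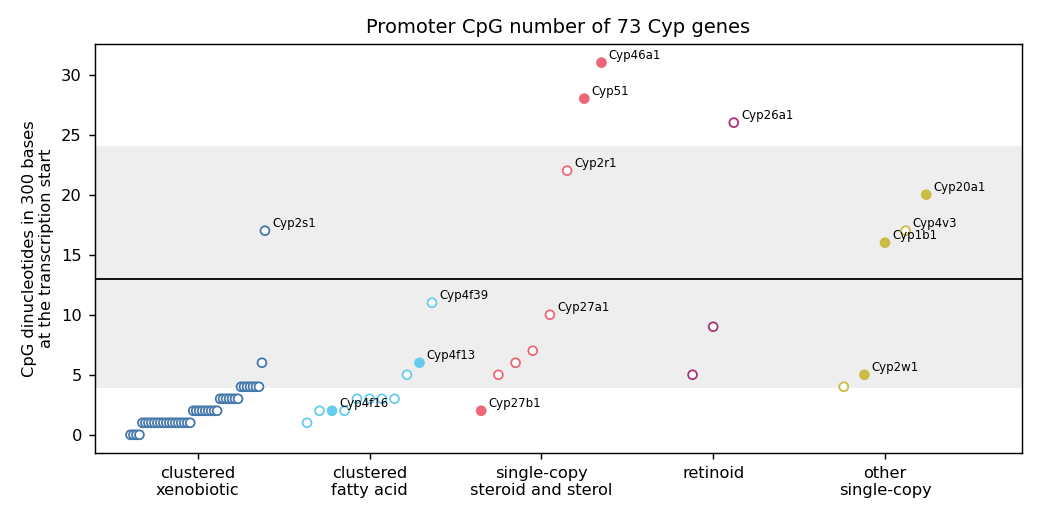
CpG dinucleotides in 300 bases around the transcription start (vertical axis) of 73 Cyp genes by class. Filled points have an accessible interval over those bases; the line and grey band are the median, 13, and quartiles of 17492 protein-coding promoters. All but 1 of the 46 clustered xenobiotic promoters hold fewer than 10.

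Short motifs were counted on both strands of the same 300 bases. TATAAA was in 29 of 73 Cyp promoters (39.7%) and 13.3% of all promoters, and in 24 of 46 clustered xenobiotic ones (52.2%). AGGTCA, a hexamer bound by nuclear receptors, was in 20 (27.4%, against 14.5% of all promoters). None of the 9 listed open Cyp genes held TATAAA or AGGTCA. The GC box, GGGCGG, was in 18 (24.7%, against 46.3%), among them 6 of the 9 open genes. GCGTG, the core of the aryl hydrocarbon receptor element, was in 16 (21.9%, against 38.5%), among them 6 of the 9. The AP-1 motif TGANTCA was in 6 Cyp promoters (8.22%, against 7.03%), among them Cyp4f16. A match is a string of letters and not a bound site, and paralogs share ancestry. The motif counts among open Cyp genes have no share over all open promoters beside them, so they cannot be called particular to Cyp genes.

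Exactly repeated sequence was present at some clustered promoters. At 18 of 46 clustered xenobiotic promoters, some run of 50 bases was repeated exactly in the listed promoter of another gene, and at 4 this held for more than 50% of such runs (Cyp2b9, Cyp2b13, Cyp2c40 and Cyp2c69). At others the share was small, as at Cyp2a12 and Cyp2a22 (0.398% of runs each). The remaining 28 clustered xenobiotic promoters had no such run, and none of the 46 had an interval. Of the clustered fatty acid promoters, the open Cyp4f16 and the closed Cyp4f37 had such runs (19.9% each). No such run was found at steroid and sterol, retinoid or other single-copy promoters. Listed promoters were compared only with each other, not with the genome, pseudogenes or unlisted copies. The part of repeated sequence in the closed arrays was not tested.

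Among genes that work with P450 enzymes, redox partners, haem synthesis, cholesterol synthesis and xenobiotic sensor genes were mostly open, on lists written by function. Steroid hormone partners and retinoid partners were mostly without a gene-end interval. Of 7 redox partners, which pass electrons to the enzymes, 6 had a gene-end interval, led by the P450 reductase gene Por (total signal 122693), with the ferredoxin gene Fdx1 the exception. Among 8 haem synthesis genes 6 had one, and among 18 cholesterol synthesis genes, the pathway of Cyp51, 15 did (83.3%). Of 9 xenobiotic sensor genes 7 did, with Nr1i2, the pregnane X receptor of liver and gut, and Ahrr the exceptions. Of 9 partners in steroid hormone synthesis 4 did (44.4%), and the cholesterol transporter gene Star and Hsd3b1 had none. Of 11 retinoid partners 4 did (36.4%). The prostacyclin and thromboxane synthase genes Ptgis and Tbxas1, P450s under other symbols, had an interval in the body and none at the ends. These shares stand beside the 47.4% of all genes. The open genes Fdxr, Hsd17b1 and Rara lie on chromosome 11, where 60.5% of genes were open. Por and the cholesterol synthesis gene Mvk lie on chromosome 5, where 63.2% were.

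The labelled cell type was checked on marker genes, read against the 47.4% of all genes. Of 11 fibroblast markers 9 had a gene-end interval, with Thy1 and Pdgfra the exceptions. Maxima at these 9 ran from 18 (Col1a2) to 50 (Vim). Of 7 hepatocyte markers 1 did (Apob, maximum 12), and Alb, Ttr and Hnf4a were among those without. None of 5 intestinal epithelial markers had a gene-end interval. Vil1 and Cdx2 had one in the body, as did 53.7% of all genes. All 5 had one within 50 kb, as did 71% of all genes. Of 6 markers of steroid cells of the adrenal and gonad 1 had a gene-end interval (Nr5a1, maximum 14), and Star, Mc2r, Lhcgr and Fshr did not. Of 3 brain markers Rbfox3 and Gfap did (maxima 53 and 38) and Syt1 did not. Rbfox3 and Gfap lie on chromosome 11, as does the fibroblast marker Col1a1, and 60.5% of genes on that chromosome were open.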

How the data were processed

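ATAC-seq of 6 samples in 3 groups is described in the labels, and genotype and treatment labels set the groups. The values came from 1 deposited list for the Ezh2 -/- group, and the other groups were not used here. Per the submitters' processing notes, the tools included Bowtie2 2.2.9, deepTools and SEACR, and the build was mm10. Not given in the sources used here are the threshold, the handling of duplicates and of reads that align more than once, and the way both replicates entered the list. It has 6 unnamed columns. The fourth, total signal by SEACR's column order, was deposited as a score of unstated scale. The fifth is the maximum signal as deposited by the authors, with no stated normalization. The 21835 intervals belong to 19215 called regions with distinct values, and 20.5% of intervals do not contain their own maximum, so signal belongs to the called region and may lie outside the interval at a gene. Read depth is unknown.

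Gene positions came from the RefSeq table of GRCm38, which shares coordinates with mm10, and transcription starts and promoters from the RefSeq promoter table. Intervals were matched at both gene ends (1 kb), over the body and within 50 kb, with at least 1 bp of overlap. Clusters are runs of at least 4 members less than 500 kb apart. Every Cyp gene with an interval at an end or over the body is named, with every steroid, sterol and retinoid gene and the 5 nearest and 5 farthest of the others. The members and lists were chosen with earlier results of these data known. One marker gene's result is not reported here. No test was run: the list holds no replicate values, and genes are not replicates. Alternatives covered other windows, overlaps, signal thresholds, chromosomes and class definitions. Lookup code was tested on simulated data. Python 3.11.15, numpy 2.4.6, pandas 2.3.3 and matplotlib 3.10.9 were used.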

Additional observations from a re-analysis of the deposited data

How the results depend on the processing

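Of 43 alternative counts, 34 stayed within 1.5 times the reported one, and in 42 the share of Cyp genes was below that of all genes under the same setting. The exception was the steroid and sterol class with total signal above the median, at 6 of 16 genes (37.5%, against 32.7% of all genes). Above that median the clustered xenobiotic count was 0, the clustered fatty acid count 1 and the count within 50 kb 23. With transcription starts only, over genes with a listed start, 8 of 73 Cyp genes had an interval, 0 of 46 clustered xenobiotic and 3 of 8 steroid and sterol genes. Fewer genes enter that setting. With windows of 2500 bp the clustered xenobiotic count was 2, through Cyp2t4. By position alone the counts were 3 among genes near another member and 10 among lone genes. Counts of intervals at no other coding gene's end were chosen after seeing the data: 10 Cyp genes, 4 of them steroid and sterol genes. No paired analysis was possible because the list holds no values per replicate, which also prevented leaving out a replicate. With depth unknown, a gene without an interval cannot be told from one below the authors' threshold.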

Other observations

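Pseudogenes and other Cyp entries outside the naming rule were looked up in the same way. Of 34 Cyp pseudogenes 3 had an interval within 1 kb of an end (8.82%), as did 3.05% of all 10609 pseudogenes and 47.4% of protein-coding genes. The 3 were Cyp4a28-ps (total signal 21375, maximum 17), Cyp4f41-ps (26905, maximum 32) and Cyp3a63-ps. Cyp3a63-ps also held an interval inside it (145628951 to 145634291 on chromosome 5, total signal 33361, maximum 18). The interval at Cyp4f41-ps also reached an end of a protein-coding gene, so it cannot be given to the pseudogene alone. Of 6 protein-coding genes with a longer symbol 2 had a gene-end interval, Cyp3a41b (called region of total signal 47609, maximum 15) and Cyp3a41a (233819, maximum 19). The region at Cyp3a41a was deposited as 4 intervals and exceeded the total signal at each of the 93 Cyp genes, including Cyp2w1 (197909), while its maximum was below that of 11 of the 13 open ones. The interval at the end of Cyp3a41a (145685676 to 145694126) lay mostly outside the gene, whose lower end is at 145694049. Cyp2c52-ps, at the lower edge of the Cyp2c array, held an interval inside it (38990270 to 38990966 on chromosome 19, total signal 16500, maximum 29), which is the one nearest to Cyp2c55.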
